A study of Mus musculus with 12 samples.

Results

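The 6 cyclin-dependent kinase (CDK) inhibitors Cdkn1a, Cdkn1b, Cdkn1c, Cdkn2b, Cdkn2c and Cdkn2d and the 3 D cyclins Ccnd1, Ccnd2 and Ccnd3 were followed through an exposure of mouse dendritic cells to nanoparticles. They were found by the RefSeq accession of each array probe. All 9 were measured, out of 18404 genes tested, of which 11577 had a gene symbol. The cells were bone marrow-derived dendritic cells of female mice aged 6 to 8 weeks, grown with GM-CSF at 20 ng/ml and taken on day 7 as immature cells. They were exposed to 300 µg/ml of poly(γ-glutamic acid) nanoparticles, whose polymer is biodegradable, and RNA was taken at 0, 6, 12 or 24 h, with 3 samples per time. The series' design describes 3 independent experiments, and the labels do not say whether these used separate animals, so the p-values measure the spread between these samples, which may be technical. The later times have no untreated cultures beside them, so exposure cannot be told apart from time in culture. The arrays were Agilent 1-colour mouse arrays.

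D cyclins bind and activate CDK4 and CDK6, which phosphorylate the retinoblastoma protein and so free E2F factors to switch on the genes of S phase. The INK4 inhibitors (Cdkn2b, Cdkn2c and Cdkn2d) bind CDK4 and CDK6 and keep D cyclins off them, while the CIP/KIP inhibitors (Cdkn1a, Cdkn1b and Cdkn1c) bind cyclin-CDK complexes and block CDK2 above all. GM-CSF marrow cultures hold dividing precursors beside dendritic cells, which leave the cell cycle as they mature.

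Cdkn2b was higher at 6 h in both sources of values described below, and Cdkn2c and Cdkn2d were lower in both. The 250 bases before their starts are shown, 5′ to 3′ on the gene's strand, so that these INK4 genes, which moved apart, can be compared. The windows are from RefSeq's GRCm38.p6 promoter table, which held 6 of the 9 members, and all 3 genes lie on the minus strand. The windows are at chr4:89311033-89311282 for Cdkn2b, chr4:109666757-109667006 for the first listed start of Cdkn2c, and chr9:21291210-21291459 for Cdkn2d. Capitals mark a match to TGACGTCA, the cyclic AMP response element, or to GGGCGG, the GC box, on either strand.
Cdkn2b: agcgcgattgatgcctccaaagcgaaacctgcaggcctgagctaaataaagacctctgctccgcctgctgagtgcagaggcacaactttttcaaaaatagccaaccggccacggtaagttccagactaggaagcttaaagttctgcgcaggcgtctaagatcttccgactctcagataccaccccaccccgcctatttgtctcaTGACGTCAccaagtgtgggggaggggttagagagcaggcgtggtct
Cdkn2c: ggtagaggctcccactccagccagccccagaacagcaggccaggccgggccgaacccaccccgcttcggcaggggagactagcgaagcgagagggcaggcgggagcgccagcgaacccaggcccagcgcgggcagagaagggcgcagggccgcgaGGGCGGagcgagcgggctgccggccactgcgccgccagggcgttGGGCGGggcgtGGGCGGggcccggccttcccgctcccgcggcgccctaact
Cdkn2d: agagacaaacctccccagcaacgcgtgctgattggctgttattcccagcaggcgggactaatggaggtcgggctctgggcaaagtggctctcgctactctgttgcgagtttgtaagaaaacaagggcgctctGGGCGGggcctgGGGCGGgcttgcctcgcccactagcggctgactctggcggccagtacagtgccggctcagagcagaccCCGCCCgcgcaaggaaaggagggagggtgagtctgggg

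The Cdkn2b window held 1 cyclic AMP response element, which began 46 bases before the start, and no GC box. That element was in 1.55% of the 32851 windows of 250 bases. The printed windows of Cdkn2c and Cdkn2d held 3 GC boxes each and no such element, and a GC box was in 32.7% of all windows. The GC content was 53.6% for Cdkn2b, 77.2% for Cdkn2c and 63.6% for Cdkn2d. Cdkn2c has a second listed start, whose window at chr4:109665373-109665622 held no GC box and no response element and had a GC content of 42.8%. GC boxes were not particular to Cdkn2c and Cdkn2d. They were also in the windows of Cdkn1b (1), the second listed start of Cdkn1a (2) and the starts of Ccnd3 (2 and 1). The first listed start of Cdkn1a had none. Neither the E2F pattern TTTNNCGC (4.28% of windows), the AP-1 pattern TGANTCA (6.75%), the E-box CACGTG (6.02%) nor TATAAA (12.4%) was found in any window of the 6 members on either strand. No matches in the printed windows overlapped. A match is a run of letters and does not show a bound factor.

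The series holds 2 sources of values for the same sample labels. The scanner files give the signal of each array, used here as log2 relative to the array's 75th percentile. The deposited value table gives a ratio for each probe, set against the median of the 3 columns at 0 h and used here as log2, so its values at 0 h lie about 0 by construction. Over 18404 genes the changes from 0 h in the 2 sources correlated at r = 0.73 at 6 h, 0.54 at 12 h and -0.075 at 24 h, across genes, which are not independent replicates. The arrays labelled 24 h stood close to those labelled 0 h: their mean correlation was 0.991, against 0.995 among the arrays at 0 h and 0.91 between 12 and 24 h. The table's 24 h columns had a mean correlation of 0.896 with its 12 h columns. Deviations of single samples from their group means correlated across the 2 sources at only -0.0583 to 0.0922, so the 2 sets of values could not be matched sample by sample. Which source carries the right labels was not tested, and every result is therefore given in both.

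Between 50.9% and 59.6% of the spots of an array were above background. The 3 slides were shared by neighbouring times: the first by 0 h and 1 array at 6 h, the second by 2 arrays each at 6 and 12 h, and the third by 1 array at 12 h and those at 24 h. Of 11 dendritic cell markers, all 11 were above background on every array at 0 and 24 h and 9 at 6 and 12 h, where Cd209a, a lectin receptor, was below it on every array. Markers of other cells were present too. All 9 measured neutrophil and granulocyte precursor markers and all 7 measured macrophage markers were above background on every array, whereas Ncr1, Gzma, Prf1 and Eomes (natural killer cells) and Pax5, Blk and Ebf1 (B cells) were above it on none. The summed signal of the granulocyte list, relative to the 75th percentile, was 298.0 to 306.1 at 0 h, 285.0 to 328.7 at 6 h, 339.1 to 386.8 at 12 h and 298.6 to 306.8 at 24 h. The list's mean log2 ratio in the value table was -0.72 to -0.70 at 6 h, -1.72 to -1.45 at 12 h and -2.89 to -2.81 at 24 h. The macrophage list's summed signal was 173.8 to 174.8 at 0 h, 143.8 to 159.9 at 6 h, 269.7 to 297.5 at 12 h and 169.5 to 178.8 at 24 h. Its mean log2 ratio in the table was -1.25 to -1.11 at 6 h, -1.82 to -1.72 at 12 h and -1.73 to -1.70 at 24 h. The part of other cells in the results below was not tested, and in bulk samples fewer cells of a type and less RNA per cell cannot be told apart.

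A gene was called at a Benjamini-Hochberg adjusted p under 0.05 in limma, over all genes tested, with a change of at least 2-fold. At 6 h against 0 h the scanner files had 3 members called higher and 4 called lower, where 10.2% of all genes were called higher and 15.9% lower. At 12 h they had 3 higher and 2 lower, beside 13.7% and 16.9% of all genes. At 24 h no member was called by limma, beside 0.696% of all genes called higher and 0.141% lower. Cdkn1a and Cdkn1b had an unadjusted p under 0.05 there, with limma's adjusted p = 0.01119 and 0.2042. Cdkn1a thus missed only the 2-fold threshold, at a change of 0.28. According to the value table, 2 members were called higher and 4 lower at 6 h, beside 13.2% and 11.8% of all genes. It had 2 higher and 5 lower at 12 h, beside 15.7% and 12.1%, and 2 higher and 5 lower at 24 h, beside 13.3% and 13%. A member's 3 samples lay wholly apart from those at 0 h for 9 of 9 members at 6 h in the scanner files, 8 at 12 h and 5 at 24 h, beside 75.5%, 79.4% and 44.5% of all genes. The same held for 8, 9 and 9 members in the value table, beside 72.3%, 77.2% and 78.1%. Cdkn2b was called higher by both sources at 6 and 12 h, and Ccnd1 and Cdkn2c were called lower by both at 6 and 12 h. Cdkn2d was called lower by both at 6 h. Cdkn1c at 6 h and Ccnd2 at 12 h were called in opposite directions. Where the text gives a difference between the sources, it is the table's change minus the scanner's, and such a difference passed both thresholds for 15.1%, 29.8% and 28% of all genes at 6, 12 and 24 h.

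**Figure D1:**
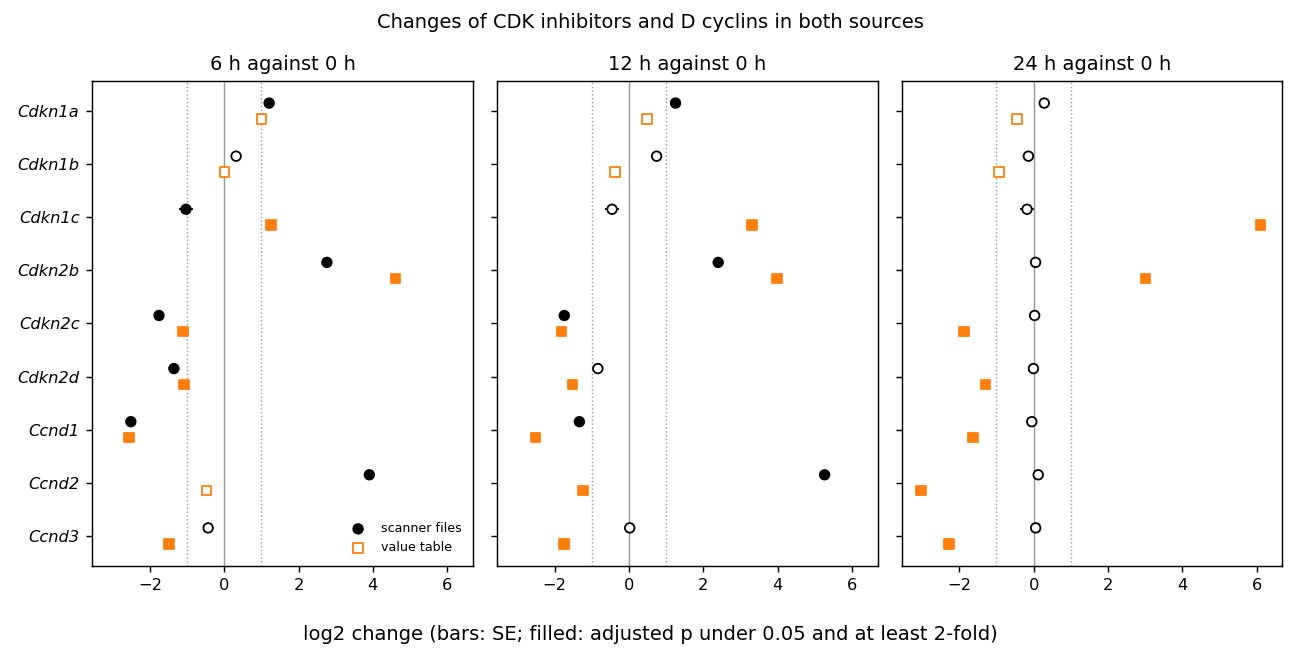
The x axis gives the log2 change from 0 h at 6, 12 and 24 h, with SE as bars, for each gene on the y axis; black circles are scanner files, orange squares the value table, and filled symbols passed both thresholds. Cdkn2b lay to the right and Ccnd1 and Cdkn2c to the left in both sources at 6 and 12 h, while at 24 h every scanner symbol is open and close to 0.

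Among the INK4 inhibitors, Cdkn2b (p15, an inhibitor known as a target of transforming growth factor β) was called higher at 6 and 12 h in both sources. At 24 h it was called higher only in the value table. Its scanner level was 2.34, 2.34 and 2.32 at 0 h, 5.26, 4.83 and 5.20 at 6 h, 4.72, 4.66 and 4.83 at 12 h, and 2.40, 2.36 and 2.40 at 24 h. Every array at 6 and 12 h was above every array at 0 and 24 h, and the 24 h arrays stood barely above those at 0 h. The change from 0 h was 2.76 ± 0.097 (SE, n = 3 per group) at 6 h, a 6.78-fold rise with limma's adjusted p = 2.379e-09, and 2.40 ± 0.097 at 12 h with adjusted p = 5.096e-09. Within the first slide, the array at 6 h exceeded the mean of the 3 arrays at 0 h by 2.93. The log2 ratio of Cdkn2b in the value table was 4.66, 4.60 and 4.53 at 6 h, 4.02, 4.02 and 3.90 at 12 h, and 2.92, 3.02 and 3.05 at 24 h. It was highest at 6 h and lower at each later time, without overlap between times, and all 9 values lay far above those at 0 h, which ran from -0.11 to 0.10. The table's change was 24.3-fold at 6 h, 15.8-fold at 12 h and 8.02-fold at 24 h, the last with limma's adjusted p = 9.92e-11. The table's rise exceeded the scanner's by 1.84 ± 0.119 at 6 h on the log2 scale, with adjusted p = 3.222e-10 in limma's test of the difference between sources.

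Cdkn2c (p18, an inhibitor of CDK4 and CDK6 whose own transcription E2F is known to drive) fell. Its scanner level was 2.05, 2.06 and 2.03 at 0 h, 0.34, 0.27 and 0.26 at 6 h, 0.33, 0.38 and 0.21 at 12 h, and 2.05, 2.04 and 2.12 at 24 h. The arrays at 6 and 12 h shared 1 range far below the arrays at 0 and 24 h, which shared another. The fall from 0 h was -1.75 ± 0.050 at 6 h (adjusted p = 5.228e-10, limma) and -1.74 ± 0.050 at 12 h (adjusted p = 3.895e-10). The value table's log2 ratio was -1.08, -1.12 and -1.21 at 6 h, -1.76, -1.89 and -1.87 at 12 h, and -1.88, -1.91 and -1.92 at 24 h. The columns at 6 h stood between those at 0 h and those at 12 h, and the 12 and 24 h columns overlapped. The changes at 12 h were alike in size, -1.74 and -1.81, and their difference between sources was -0.07 ± 0.072 (adjusted p = 0.4075, limma).

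Cdkn2d (p19, an inhibitor whose amount is known to vary over the cell cycle) was lower too. Its scanner level was 3.22, 3.20 and 3.24 at 0 h, 1.95, 1.68 and 1.97 at 6 h, 2.40, 2.39 and 2.36 at 12 h, and 3.17, 3.22 and 3.25 at 24 h. The 6 h arrays were the lowest, the 12 h arrays stood between, and those at 24 h overlapped those at 0 h. The fall was -1.35 ± 0.070 at 6 h (adjusted p = 4.259e-08, limma). At 12 h the change was -0.84 ± 0.070, a 1.79-fold difference that missed the 2-fold threshold. The value table had -1.14, -0.97 and -1.19 at 6 h, -1.50, -1.48 and -1.62 at 12 h, and -1.24, -1.40 and -1.31 at 24 h. All 9 columns lay below those at 0 h, and the lowest were those at 12 h, not at 6 h. The table's changes of -1.08, -1.52 and -1.30 were called at all 3 times, with limma's adjusted p at most 4.419e-07.

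**Figure D2:**
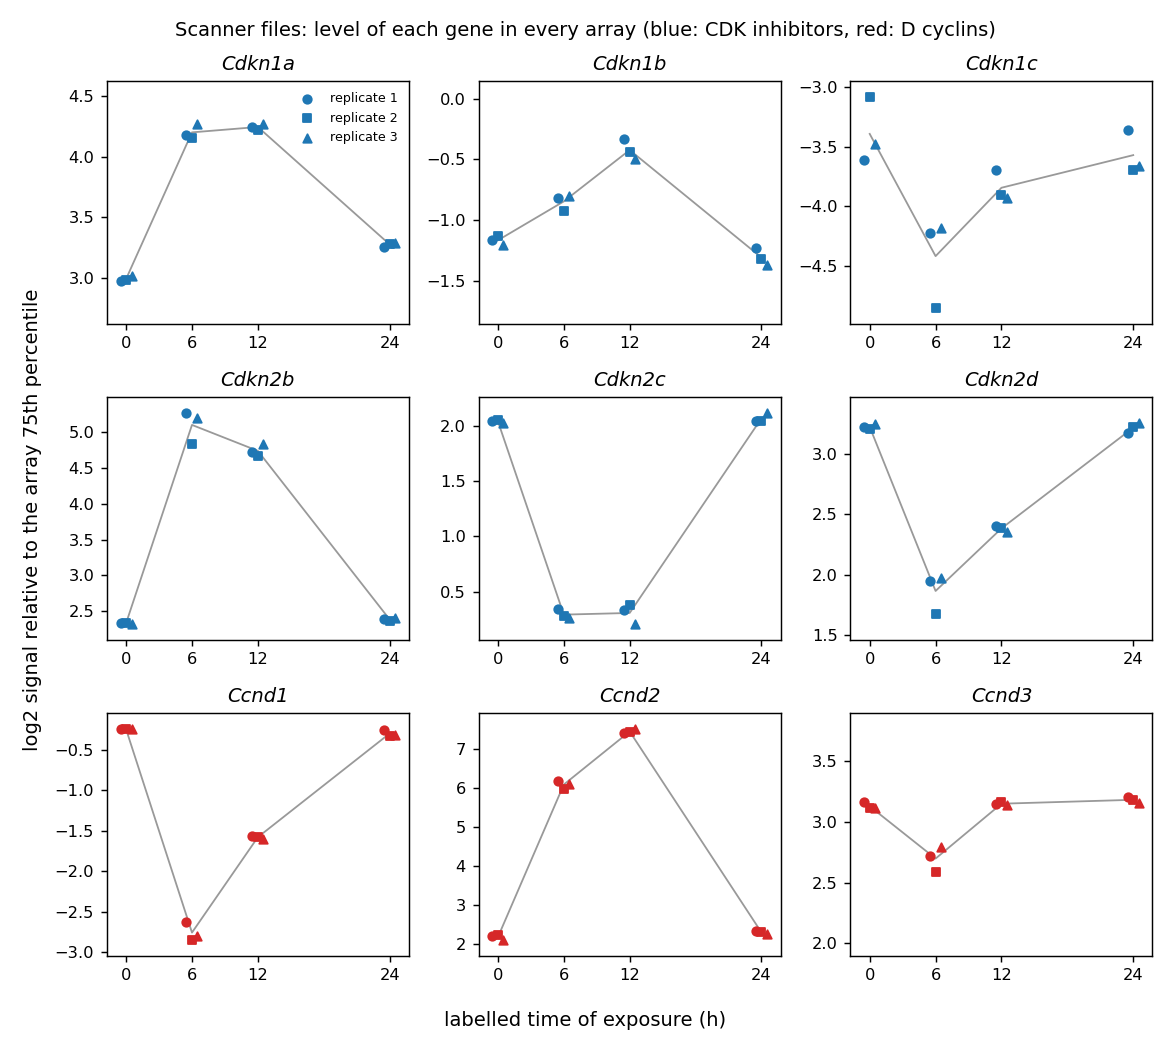
Each panel plots 1 gene's log2 signal relative to the array's 75th percentile (y axis, own range per panel) in the 12 arrays against the labelled time in hours (x axis), with a line through the group means. The arrays at 6 and 12 h stand apart from those at 0 h for every gene but Ccnd3, whose 12 h arrays overlap those at 0 h. The means at 24 h lie within -0.18 to 0.28 log2 units of those at 0 h for all 9 genes.

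Among the CIP/KIP inhibitors, Cdkn1a (p21, the best known target of p53) was higher at 6 h. Its scanner level, the mean of 10 spots per array, was 2.98, 2.98 and 3.02 at 0 h, 4.18, 4.15 and 4.27 at 6 h, 4.24, 4.22 and 4.27 at 12 h, and 3.26, 3.28 and 3.29 at 24 h. The arrays at 6 and 12 h overlapped each other and stood apart from the rest, and those at 24 h stayed a little above those at 0 h. The rise was 2.31-fold at 6 h, 1.21 ± 0.039 (adjusted p = 1.33e-09, limma), and 2.38-fold at 12 h, 1.25 ± 0.039 (adjusted p = 7.442e-10). With quantile normalization the 12 h value was 0.93 and no longer called. In the value table the log2 ratio was 1.10, 1.00 and 1.01 at 6 h, 0.51, 0.55 and 0.51 at 12 h, and -0.50, -0.35 and -0.41 at 24 h. The columns at 6 h were the highest, and those at 24 h were below those at 0 h. The table's change of 1.00 ± 0.057 at 6 h was 0.9998 before rounding and so just missed the 2-fold threshold, with limma's adjusted p = 9.447e-08. It passed without 0 h replicate 3 (1.04), 6 h replicate 2 (1.02) or 6 h replicate 3 (1.01). The 12 h change of 0.49 and the 24 h change of -0.45 were not called.

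Cdkn1b (p27, the inhibitor of resting cells, regulated mainly through its protein's breakdown) was not called at 6, 12 or 24 h in either source. Its scanner level was -1.16, -1.13 and -1.21 at 0 h, -0.82, -0.92 and -0.80 at 6 h, -0.33, -0.44 and -0.50 at 12 h, and -1.23, -1.32 and -1.37 at 24 h. The 6 h arrays were above those at 0 h and the 12 h arrays above both, and the largest change was 0.74 ± 0.058 at 12 h, with limma's adjusted p = 8.499e-07. The value table had 0.05, 0.05 and -0.09 at 6 h, -0.21, -0.29 and -0.63 at 12 h, and -1.15, -0.84 and -0.81 at 24 h. There the 24 h columns were the lowest, at a change of -0.94 ± 0.117 (adjusted p = 4.197e-05, limma), and with the median of each column subtracted this was -1.06 and called. The sources differed by -1.12 ± 0.133 at 12 h (adjusted p = 5.405e-07). A second Cdkn1b probe was above background on 1 array and was not used.

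Cdkn1c (p57, an imprinted inhibitor active in development) was the member on which the sources differed most at 24 h. Its probe was dim, above background on 10 of 12 arrays and on only 1 of 3 at 6 h. The scanner level was -3.61, -3.08 and -3.48 at 0 h, -4.22, -4.85 and -4.18 at 6 h, -3.70, -3.90 and -3.93 at 12 h, and -3.36, -3.69 and -3.66 at 24 h. The 6 h arrays were lowest, and those at 24 h overlapped those at 0 h. The change at 6 h was -1.03 ± 0.196 (adjusted p = 0.0008506, limma). This call rests on single arrays: it was -0.87 without 0 h replicate 2 and -0.81 without 6 h replicate 2, neither of them called, and it was -0.44 with normexp background correction. In the value table the log2 ratio was 1.44, 1.23 and 1.07 at 6 h, 3.28, 3.29 and 3.30 at 12 h, and 6.04, 6.03 and 6.19 at 24 h. Each later time lay above the one before it without overlap. The table's changes were 2.40-fold at 6 h, 9.92-fold at 12 h and 68.9-fold at 24 h, the last 6.11 ± 0.119 with limma's adjusted p = 3.935e-11. The difference between the sources was 2.29 ± 0.237 at 6 h (adjusted p = 1.903e-07) and 6.28 ± 0.237 at 24 h (adjusted p = 4.506e-14).

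Of the D cyclins, Ccnd1 fell in both sources. Cyclin D1 links growth factor signals to the cell cycle in many cell types. Its scanner level, the mean of 10 spots per array, was -0.25 in each array at 0 h, -2.62, -2.85 and -2.80 at 6 h, -1.56, -1.58 and -1.60 at 12 h, and -0.26, -0.33 and -0.31 at 24 h. The 6 h arrays were the lowest and the 12 h arrays stood midway, without overlap. The changes were -2.51 ± 0.055 at 6 h (adjusted p = 9.901e-11, limma) and -1.33 ± 0.055 at 12 h (adjusted p = 6.379e-09). Within the first slide the 6 h array lay below the 0 h arrays by a difference of -2.37. Under normexp the 12 h change was -0.94 and not called. The value table had -2.36, -2.62 and -2.56 at 6 h, -2.50, -2.47 and -2.45 at 12 h, and -1.54, -1.59 and -1.62 at 24 h. There the 6 and 12 h columns overlapped, and the 24 h columns lay between them and those at 0 h. The change at 6 h, -2.56 ± 0.073, differed from the scanner's by -0.05 ± 0.090 (adjusted p = 0.675, limma), and at 12 h the sources differed by -1.19 ± 0.090 (adjusted p = 1.155e-09).

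Ccnd2, the D cyclin known in hematopoietic cells for its induction by cytokines, had the largest change of the 9 members at 6 and 12 h in the scanner files. Its scanner level was 2.20, 2.24 and 2.11 at 0 h, 6.17, 5.98 and 6.10 at 6 h, 7.40, 7.42 and 7.50 at 12 h, and 2.33, 2.30 and 2.27 at 24 h. The 12 h arrays stood above those at 6 h, and both far above those at 0 and 24 h. The rise was 15.0-fold at 6 h, 3.90 ± 0.057 (adjusted p = 1.08e-11, limma), and 38.4-fold at 12 h, 5.26 ± 0.057 (adjusted p = 1.311e-12). The log2 ratio in the value table was -0.40, -0.45 and -0.53 at 6 h, -1.19, -1.18 and -1.32 at 12 h, and -3.02, -3.04 and -2.97 at 24 h. Every column after 0 h was below those at 0 h, and each later time lay below the one before it. The table's change was -0.48 ± 0.063 at 6 h, not called, -1.24 ± 0.063 at 12 h (adjusted p = 3.728e-08, limma) and -3.02 ± 0.063 at 24 h (adjusted p = 6.189e-11). The difference between the sources at 12 h was -6.50 ± 0.083 (adjusted p = 2.704e-20).

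The gene had 3 kept probes, which moved together within each source. Their scanner means at 12 h were 7.44, 7.32 and 7.17, against 2.18, 2.01 and 2.06 at 0 h. Their means in the value table at 12 h were -1.23, -1.20 and -1.16, against 0.01, 0.02 and 0.06 at 0 h. At 12 h all 3 probes stood above their 0 h means in the scanner files and below them in the table.

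Ccnd3, a D cyclin known in lymphoid and myeloid cells, was called only in the value table. Its scanner level was 3.16, 3.11 and 3.12 at 0 h, 2.72, 2.59 and 2.79 at 6 h, 3.15, 3.17 and 3.14 at 12 h, and 3.21, 3.18 and 3.16 at 24 h. The 6 h arrays were below the rest, by a change of -0.43 ± 0.050 that was under 2-fold (adjusted p = 2.275e-05, limma), and the 12 h arrays overlapped those at 0 h. The value table had -1.55, -1.42 and -1.55 at 6 h, -1.73, -1.75 and -1.80 at 12 h, and -2.31, -2.29 and -2.26 at 24 h. Each later time lay below the one before it without overlap. The table's changes were -1.49 ± 0.063, -1.74 ± 0.063 and -2.27 ± 0.063, with limma's adjusted p at most 1.015e-08, and the difference between sources was -1.05 ± 0.078 at 6 h (adjusted p = 1.902e-09) and -1.76 ± 0.078 at 12 h (adjusted p = 4.326e-13).

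**Figure D3:**
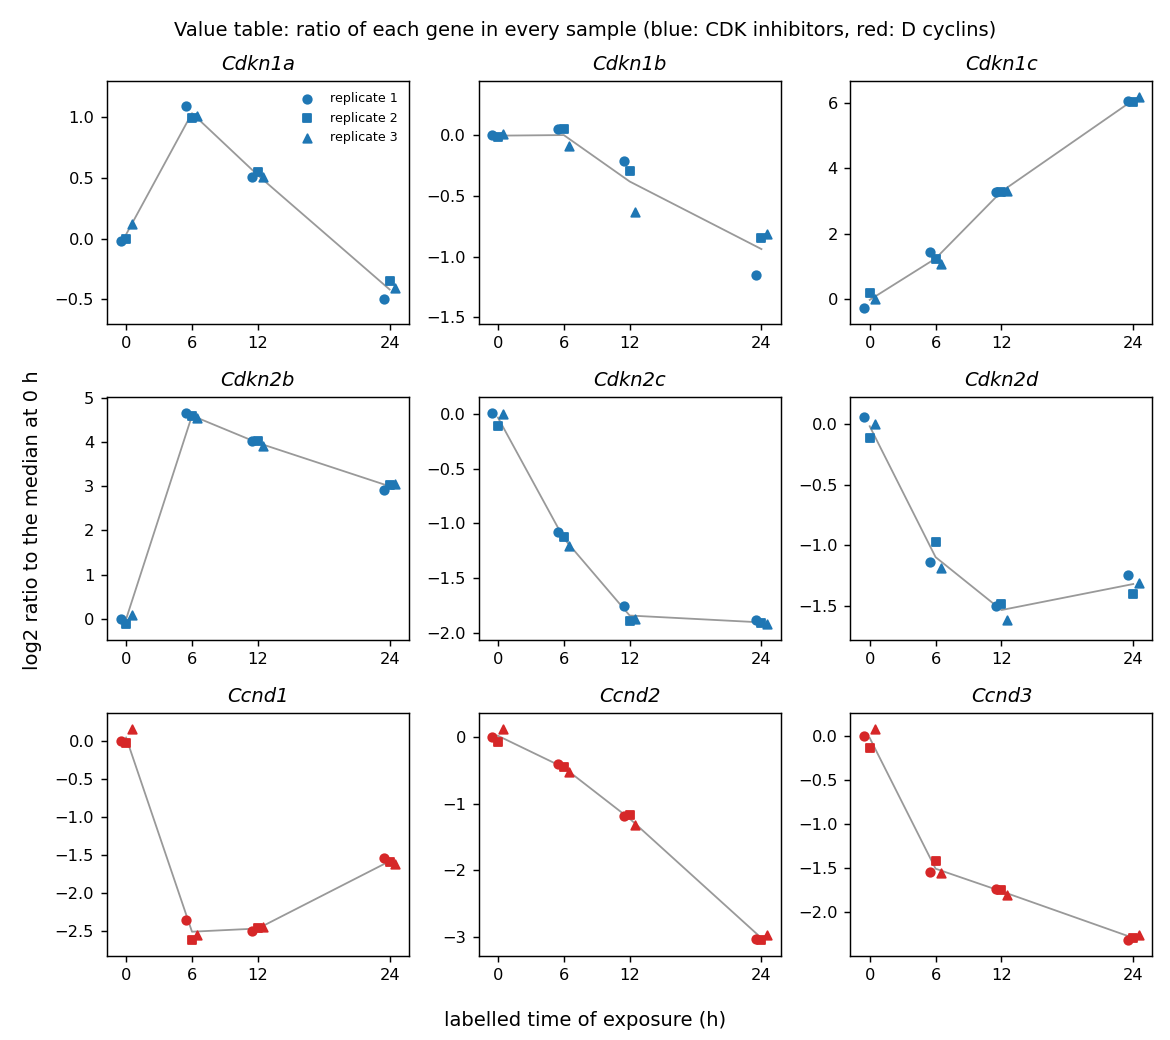
Each panel plots 1 gene's log2 ratio to the median at 0 h (y axis, own range per panel) in the 12 columns of the value table against the labelled time in hours (x axis), with a line through the group means. Cdkn1c climbs to 6.03 or more and Ccnd2 falls to -2.97 or less at 24 h, while Cdkn2b is highest at 6 h.

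The 3 D cyclins thus had 3 different scanner patterns. Ccnd1 fell, Ccnd2 rose, and Ccnd3 was not called, whereas in the value table all 3 were called lower at 12 and 24 h. The INK4 genes parted in both sources, with Cdkn2b called higher and Cdkn2c called lower at 6 and 12 h. Over the whole time course, limma's F-test with a 2-fold change in any contrast with 0 h called 7 of 9 members in the scanner files, beside 36.1% of all genes, and 7 in the value table, beside 36.9%. Cdkn1b and Ccnd3 were not called in the scanner files, and Cdkn1a and Cdkn1b were not called in the value table.

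Between neighbouring times the scanner files had Ccnd1 and Ccnd2 called higher at 12 h than at 6 h, beside 4.88% of all genes called higher and 2.1% lower. Ccnd1 differed by 1.18 ± 0.055 and Ccnd2 by 1.36 ± 0.057, and within the second slide, with 2 arrays per time, these differences were 1.26 and 1.37. From 12 to 24 h, Cdkn2c (1.76 ± 0.050) and Ccnd1 (1.28 ± 0.055) were called higher and Cdkn2b (-2.35 ± 0.097) and Ccnd2 (-5.14 ± 0.057) lower, beside 18.2% and 12.9% of all genes. Within the third slide the same differences, against 1 array at 12 h, were 1.86, 1.30, -2.44 and -5.20. From 6 to 12 h the value table had only Cdkn1c called, as higher (2.05 ± 0.119), beside 3.07% of all genes called higher and 2.73% lower. From 12 to 24 h it called Cdkn1c higher (2.80 ± 0.119) and Ccnd2 lower (-1.78 ± 0.063), beside 1.4% and 3.17%.

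Other genes around the G1 to S transition were counted in 6 lists, whose counts stand beside the shares of all genes called. In the scanner files these were 10.2% higher and 15.9% lower at 6 h and 13.7% and 16.9% at 12 h, and in the table they were 13.2% and 11.8% at 6 h and 15.7% and 12.1% at 12 h. Of 19 measured proliferation markers, none was called higher and 13 were called lower at 6 h and 12 at 12 h in the scanner files, with median changes of -1.29 and -1.27 beside -0.06 and -0.03 over all genes. At 24 h none was called in that source, with a median of 0.01, where only 0.141% of all genes were called lower. By the value table, 8, 16 and 17 were called lower at 6, 12 and 24 h, with medians of -0.96, -1.68 and -2.41 beside 0.14, 0.22 and 0.12 over all genes. At 24 h the table had 13% of all genes called lower. Tk1, thymidine kinase, changed by -2.27 in the scanner files and -2.26 in the table at 6 h. Aurkb, a mitotic kinase, changed by -2.31 and -1.90 at 12 h, and the mitotic cyclin Ccnb2 by -2.24 and -1.91.

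Of 11 kinases and later cyclins, 1 was called higher and 3 lower at 6 h in the scanner files, with a median of -0.11, and 0 higher and 3 lower in the table, with a median of -0.18. At 12 h these counts were 1 and 2, and 0 and 3. Counts of 1 and 3 of 11 are near the 10.2% and 15.9% of all genes called at 6 h. Ccne1, the cyclin that activates CDK2 in late G1, changed by -1.43 in the scanner files and -2.11 in the table at 6 h. Ccna2, the S phase cyclin A, changed by -2.17 and -2.37 at 12 h. Cdk6, a partner of D cyclins, was 5.71-fold higher at 6 h and 7.37-fold higher at 12 h in the scanner files (2.51 ± 0.090 and 2.88 ± 0.090), but its table changes of 0.34 and -0.08 were not called. Cdk4, the other partner, was lower at 12 h in the scanner files by a change of -1.01 ± 0.067 (adjusted p = 2.613e-07, limma), and its change in the table was 0.14.

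Of 13 pocket proteins and E2F factors, 2 were called higher and 4 lower at 6 h in the scanner files (beside 10.2% and 15.9% of all genes), with a median of -0.30, and 0 and 4 in the table, with a median of -0.01. At 12 h the counts were 1 and 4, and 0 and 3. E2f2, an activating E2F, changed by -1.99 and -1.62 at 6 h and by -2.41 and -2.53 at 12 h, in the scanner files and the table. Tfdp2, a dimerisation partner of E2Fs, changed by -2.03 and -1.89 at 6 h and by -2.09 and -1.44 at 12 h. E2f5 (1.63 at 6 h and 1.73 at 12 h) and E2f3 (1.02 at 6 h) were called higher in the scanner files only, with table changes of 0.19, 0.54 and 0.81.

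Of 13 measured MYC and FOXO regulators, 0 were called higher and 5 lower at 6 h in the scanner files, with a median of -0.40, and 2 and 3 in the table. At 12 h the counts were 2 and 6, and 1 and 4. Mxd3, a partner of MAX, changed by -3.05 and -2.50 at 6 h and by -3.40 and -3.68 at 12 h in the scanner files and the table. Mycl, a MYC family member, changed by -1.74 and -2.35 at 12 h. Mxd1, a MAX partner known to oppose MYC, was 5.46-fold higher at 12 h in the scanner files and Foxo1, a factor that drives Cdkn1b, was 2.06-fold higher, and their table changes of 0.45 and 0.02 were not called. Mycn, another MYC family member, was not well above background on any array at 6 h and on 2 of 3 at 0 h. With its 6 h signal raised to the lowest signal of any probe above background on each array, it was 1.39-fold lower at 6 h in the scanner files. This is a rough figure and not a strict bound. The measured means were -5.54 at 6 h and -3.91 at 0 h (adjusted p = 0.007234, limma), and the table change of Mycn was 0.30.

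Of 19 measured genes of p53 and its targets, 4 were called higher and 7 lower at 6 h in the scanner files, with a median of -0.46, and 6 higher and 3 lower in the table. At 12 h there were 6 higher and 7 lower, and 6 higher and 3 lower. The polo-like kinases Plk2 and Plk3 were called higher in both sources: Plk2 by 3.74 and 2.97 at 6 h, and Plk3 by 2.63 and 1.46. Sesn1, a stress-induced sestrin, changed by -2.04 and -1.61 at 6 h. Trp53inp1 (-2.17 at 6 h) and Zmat3 (-2.63 at 12 h) were called lower in the scanner files only, with table changes of -0.38 and -0.28. The called members of this list, which does not hold Cdkn1a, thus went both ways. Of 11 genes for the turnover of inhibitors and D cyclins, 2 were called lower at 6 h in the scanner files, with a median of 0.19, and none in the table, with a median of 0.18. That count is near the 15.9% of all genes called lower. These were the F-box genes Fbxo31 (-1.02) and Fbxo4 (-1.16), whose proteins are known to target D cyclins, with table changes of -0.47 and -0.05. Fbxo31 was the 1 gene of this list called at 12 h, at -1.55 in the scanner files, against 0.74 in the table.

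**Figure D4:**
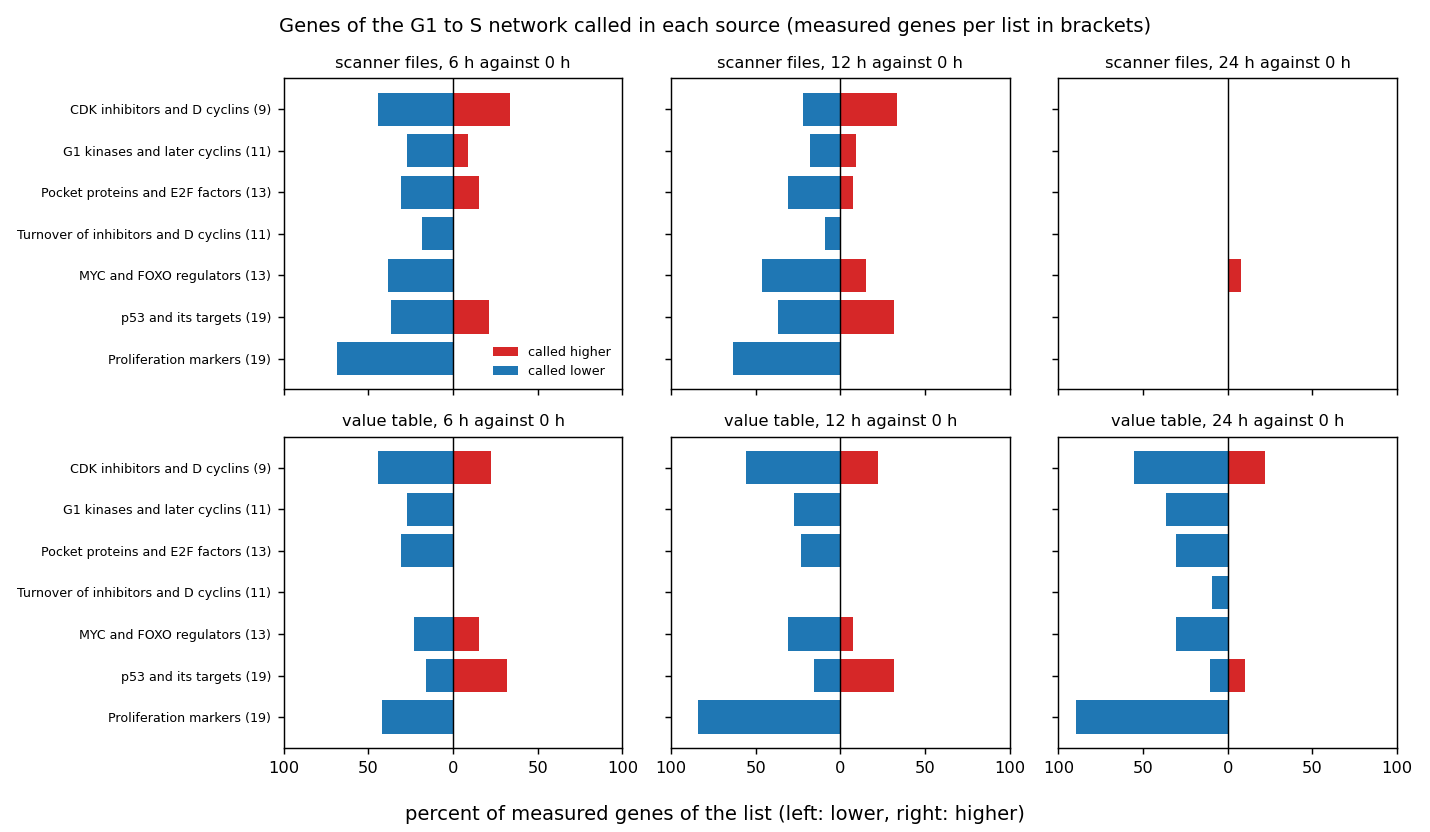
Horizontal bars give the percentage of measured genes of each list (numbers in brackets) called higher (red, right) or lower (blue, left) against 0 h, for the scanner files (top row) and the value table (bottom row) at 6, 12 and 24 h. The proliferation markers have bars to the left only, of 13, 12 and 0 genes in the scanner files and 8, 16 and 17 in the value table.

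For each member the genes with the most similar pattern in both sources were taken over 12 samples by the lower of the Pearson correlations, among 3183 or 3184 genes whose group means spanned at least 1 log2 unit in each source. The 4 time groups set these values, so they describe likeness of group means and carry no test. Cdkn2b was closest to Cxcl2 (r = 0.997 in the scanner files and 0.998 in the table), Tma16 (0.998 and 0.997) and Ikbkg (0.996 and 0.999). Cdkn2c was closest to Fbxo5 (0.998 and 0.997), Asgr2 (0.999 and 0.996) and Susd4 (0.996 and 0.998). Cdkn2d was closest to Ly86 (0.992 and 0.996), Ikzf1 (0.991 and 0.985) and Pik3cd (0.997 and 0.984).

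Ccnd1 was closest to Esr1 (0.997 and 0.995), Tcf7l2 (0.985 and 0.991) and Ndst2 (0.994 and 0.984). Ccnd2, although its direction differed between sources, was close to Trem1 (0.990 and 0.997), D16Ertd472e (0.998 and 0.988) and Car4 (0.992 and 0.986) in each. Ccnd3 was closest to Mcm10 (0.974 and 0.967), Sfxn2 (0.974 and 0.959) and Cdc6 (0.956 and 0.959). Cdkn1a was closest to Hcar2 (0.986 and 0.985), Gas7 (0.984 and 0.986) and Chil1 (0.990 and 0.983). Cdkn1b was closest to Gbp8 (0.963 and 0.956), Trem1 (0.962 and 0.946) and Cd69 (0.955 and 0.945), so Trem1 was named for both Cdkn1b and Ccnd2. Cdkn1c was closest to Dlg3 (0.944 and 0.980), Rab13 (0.914 and 0.975) and Cyp2j6 (0.901 and 0.976), and its scanner values had the lowest likeness of the 9 members.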

How the data were processed

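The scanner files hold spot intensity values from Agilent Feature Extraction 9.1.3.1, per the file headers, background-subtracted and detrended by that software. The authors also deposited a table of linear ratio values, each relative to the probe's median at 0 h, with a lowest value of 0.01 and neither its scaling between columns nor its making is given in the sources used here. Every one of its 41262 probes had a median of 1 at 0 h to within 1e-06, which settles its centring. Across genes its changes from 0 h correlated with the scanner's at r = 0.73 at 6 h, 0.54 at 12 h and -0.075 at 24 h. How its scale relates to the scanner values stays unknown, as does its direction at 24 h. No source used here names a genome build for the arrays.

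Of 45018 spots per array, 1639 were controls and 732 spots over the 12 arrays were marked as outliers, and both were left out. The log2 of the processed signal was taken and the array's 75th percentile over non-control spots subtracted; spots of a probe were averaged. Probes stayed in where at least 1 group had all its arrays above background, which left 23496 probes of 18404 genes. Accessions were named through RefSeq's GRCm38.p6 gene table, and a gene took the values of its brightest kept probe. The log2 of the deposited ratio was fitted for the same probes.

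limma 3.58.1 in R 4.3.3 (files read with the data.table package, version 1.17.8) fitted 4 group means to 12 arrays, with 8 residual degrees of freedom, and p-values were adjusted over all 18404 genes. A joint fit of both sources tested their difference, taking arrays and columns as independent although they carry the same labels. The code was tested on simulated data. Figures were drawn with matplotlib 3.10.9 in Python 3.11.15.

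The members and gene lists were chosen with earlier results of these data known. The text names all 9 members, up to 2 called genes with the largest rise and 2 with the largest fall from each other list at 6 and at 12 h in the scanner files, and the 3 genes most like each member. Alternatives were normexp with an offset of 50 (on the median signal, as no mean signal column was present), quantile and median scaling, other filters, the mean of probes, slide and replicate blocks, leaving out each sample, and the value table. A sign change between values neither of which was called does not count as reversed. The number of arrays limits the precision.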

Additional observations from a re-analysis of the deposited data

Results flagged for a closer look

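Cdkn1c at 6 h was called lower in the scanner files and higher in the value table, and the table's change exceeded the scanner's by 2.29 log2 units (adjusted p = 1.903e-07, limma's test of the difference between sources), with 3 of 3 samples on each side of those at 0 h. Only 1 of the 3 arrays at 6 h had Cdkn1c above background. Ccnd2 at 12 h was called higher in the scanner files and lower in the value table, a difference of -6.50 (adjusted p = 2.704e-20), again with 3 of 3 samples on each side. A difference of at least 2-fold between the sources past an adjusted p of 0.05 was found for 15.1% of all genes at 6 h and 29.8% at 12 h. Groups of 3 samples were not searched for outlying samples.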

How the results depend on the processing

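Apart from exchanging the sources, 953 of 967 member values in the scanner files and 689 of 702 in the value table kept their side of the threshold. None changed sign where either value was called. Uncalled values near 0 could change sign, such as Cdkn2d at 24 h in the scanner files (-0.0252 to 0.0141 with single samples left out). With the value table in place of the scanner files these changed sign, with a call in at least 1 source: Cdkn1c at 6, 12 and 24 h (1.26, 3.31, 6.11), Ccnd2 at the same times (-0.48, -1.24, -3.02) and from 6 to 12 h (-0.76), Ccnd3 at 12 and 24 h (-1.74, -2.27), and Cdkn2c at 24 h against 0 h (-1.87) and against 12 h (-0.0627). Only Cdkn1c at 6 h and Ccnd2 at 12 h were called in both sources. Some scanner changes were near 0, such as 0.02 for Ccnd3 at 12 h and, at 24 h, 0.05 for Ccnd3 and 0.03 for Cdkn2c. With the value table the members called numbered 7 at 24 h against 0 h, 2 at 24 h against 12 h and 1 at 12 h against 6 h, and 4834 of all genes were called for 24 h against 0 h and 841 against 12 h. Normexp called 2576, 3063 and 8 genes at 6, 12 and 24 h, 3154 from 12 to 24 h, and 577 (1 member) from 6 to 12 h. The scanner count of all genes at 24 h, 154 against 0 h, was 96 with no filter, 47 with probes above background on all 12 arrays (which also gave 806 from 6 to 12 h), 23 with the slide as a block, and 24 to 292 when single samples were left out, the last without 12 h replicate 3. Quantile normalization of the table called 2697, 2661 and 2637 genes at 6, 12 and 24 h, 185 from 6 to 12 h and 110 from 12 to 24 h, with 3 members at 6 h, 0 from 6 to 12 h and 1 from 12 to 24 h. The cause of these shifts was not tested. Keeping outlier spots, or leaving out the samples labelled 24 h, both chosen after the data were seen, changed no member's call.

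Same-numbered samples showed little shared deviation (correlations of -0.0853 to 0.155 in the scanner files and -0.077 to 0.226 in the table). With 3 samples per time this cannot exclude that equal numbers name the same experiment, so whether the numbers pair the samples stays unknown. The replicate block left 90 of 90 member values on the same side of the threshold, and it changed the count of all genes for 24 h against 0 h to 86.

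The main limits are the disagreement of the sources, most of all at 24 h, the 3 samples per time, the lack of untreated cultures at later times, and the dim probe of Cdkn1c.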

Other observations

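The second Cdkn1b probe, not above background on any array at 0, 6 or 12 h and above it on 1 at 24 h, nevertheless had ratios in the value table, with group means of -0.79 at 6 h, -1.90 at 12 h and -1.41 at 24 h. The spots of Ccnd1 on the array of 6 h replicate 2, which held 628 of the 732 outlier spots, ran from -3.24 to -1.82, with an SD over 10 spots of 0.392 against a median of 0.102 over the arrays.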
